A study of Homo sapiens with 8 samples.

Results

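Chromosome 10 carried 733 of the 19957 promoter windows counted in DNA of RPE1 cells, and the windows were divided by their start coordinate at 60 Mb on the hg38 build. Below the division lay 242 windows, called proximal here, which take in the short arm and the start of the long arm. At or above it lay 491 windows, called distal, which cover the rest of the long arm, 10q. Every window in the table spanned 2001 bp around an annotated gene start, so that each holds a promoter and the start of the gene body. RPE1 is a line of human retinal pigment epithelial cells immortalised with telomerase, and it is known to carry an additional copy of distal 10q. The rule for the members uses position alone and no read count, but it was set with earlier results of these data known.

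The series asked how depletion of NuMA, a protein of the nucleus and of spindle poles, for which the labels give TDIF as another name, alters oxidative damage across the genome. OGAP-seq is a pull-down of DNA with oxidative base damage, and input is DNA of the same kind of cells that was not pulled down. Of the 8 libraries, 2 were WT OGAP-seq and 2 WT input, from RPE1 cells of wild type genotype that had no doxycycline, and 2 were NuMA (TDIF)-KD OGAP-seq and 2 NuMA (TDIF)-KD input, from RPE1 cells after doxycycline. Doxycycline was given only to the KD cells, so its effect and that of the depletion cannot be told apart. The labels name 1 cell line, no clone and no separate cultures, so the p-values cover only how these libraries vary, and that variation may be technical. All libraries are DNA, so the retinal cell type could not be checked by expressed markers.

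As background, reads per window in input follow the number of DNA copies of a region, because each copy gives fragments, and they also follow how well its sequence is recovered and mapped. A region present in 3 copies, against 2 elsewhere, gives a ratio of 1.5. A pull-down starts from the same copies, and OGAP over input is therefore read after division by input. Guanine is the base most readily oxidised, and promoters differ widely in their guanine content.

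Promoter sequences are shown for the named windows with the lowest p in each direction for OGAP over input in WT, on each side of the division, among windows with a RefSeq promoter sequence (GRCh38.p14, 250 bases before to 50 after the gene start, written in the direction of the gene). Capitals mark runs of at least 4 guanines on the printed strand (GGGG) or on the opposite strand (CCCC as printed).
The first is HKDC1, distal and higher in OGAP, at chr10:69220082-69220381 on the plus strand.
HKDC1: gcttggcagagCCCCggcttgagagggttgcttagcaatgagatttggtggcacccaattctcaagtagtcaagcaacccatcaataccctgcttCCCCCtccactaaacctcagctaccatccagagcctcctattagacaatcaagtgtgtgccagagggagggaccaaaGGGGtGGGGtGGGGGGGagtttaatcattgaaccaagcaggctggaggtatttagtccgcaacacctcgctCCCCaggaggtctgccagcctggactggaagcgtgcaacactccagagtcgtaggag
The next is ATRNL1, distal and lower in OGAP, at chr10:115093115-115093414 on the plus strand.
ATRNL1: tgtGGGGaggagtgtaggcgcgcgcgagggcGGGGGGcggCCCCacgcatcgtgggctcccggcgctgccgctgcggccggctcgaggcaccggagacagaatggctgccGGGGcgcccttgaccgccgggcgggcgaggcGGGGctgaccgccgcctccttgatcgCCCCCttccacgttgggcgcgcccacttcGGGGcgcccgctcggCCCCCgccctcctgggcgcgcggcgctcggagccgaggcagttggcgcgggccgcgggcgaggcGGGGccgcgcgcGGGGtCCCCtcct
TMEM236, proximal and higher in OGAP, lies at chr10:17751951-17752250 on the plus strand.
TMEM236: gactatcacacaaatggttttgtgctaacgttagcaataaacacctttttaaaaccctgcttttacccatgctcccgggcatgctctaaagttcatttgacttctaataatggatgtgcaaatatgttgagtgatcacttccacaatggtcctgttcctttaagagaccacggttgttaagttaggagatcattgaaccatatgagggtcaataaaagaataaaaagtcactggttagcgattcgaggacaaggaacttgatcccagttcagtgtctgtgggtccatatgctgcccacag
PITRM1, proximal and lower in OGAP, lies at chr10:3172792-3173091 on the minus strand.
PITRM1: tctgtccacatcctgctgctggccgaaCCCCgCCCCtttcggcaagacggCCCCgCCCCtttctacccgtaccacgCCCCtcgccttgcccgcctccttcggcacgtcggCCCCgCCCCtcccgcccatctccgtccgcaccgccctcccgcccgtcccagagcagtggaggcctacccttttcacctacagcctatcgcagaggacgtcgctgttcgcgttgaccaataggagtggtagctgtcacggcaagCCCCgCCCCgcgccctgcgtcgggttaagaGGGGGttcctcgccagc
The promoters of the windows higher in OGAP had a GC content of 55.3% in HKDC1 and 41.3% in TMEM236, with 5 CpG dinucleotides each. Those of the windows lower in OGAP had 81.0% in ATRNL1 and 69.0% in PITRM1, with 49 and 31 CpG dinucleotides. Counted with overlaps, GGGG occurred 6 times on the strand of the gene and 4 times on the other in HKDC1, 9 and 6 times in ATRNL1, 2 and 9 times in PITRM1, and not in TMEM236. The motif GGGCGG, searched on both strands and overlapping GGGG where it follows a guanine, occurred 4 times in ATRNL1 as 3 and 1 by strand, 7 times in PITRM1 on the other strand, and not in the other two. Of 22183 RefSeq promoters of this length, 93.5% held GGGG on either strand and 56.3% held GGGCGG.

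Promoter reads per library numbered 368593 to 771138, and the median window of the whole table held 17 to 38 reads. The 2 libraries of a group varied beyond counting error in every group (chi-square over its degrees of freedom 1.91 to 2.15). Windows that overlap another window held few reads, and levels were therefore computed over windows that overlap none, which were 216 proximal, 418 distal and 13952 on the other autosomes. Chromosomes 10 and 12 were left out of that baseline, the latter because RPE1 sublines can gain chromosome 12. Of the members, 1 distal window had no read in any library, and 99 overlapped another window.

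Distal windows held more input reads per window than any other chromosome or part described here. The mean reads per distal window, divided by the mean over the other autosomes in the same library, were 1.503 and 1.504 in the WT inputs and 1.487 and 1.513 in the KD inputs. All 4 inputs lay close to the 1.5 that 3 copies against 2 would give, at 1.502 ± 0.011 (SD, n = 4). Proximal windows stood at 0.874 and 0.864 in the WT inputs and at 0.849 and 0.886 in the KD inputs, or 0.868 ± 0.016 (SD, n = 4). The proximal level was below that of the other autosomes in every input. Distal over proximal was 1.719 and 1.742 in the WT inputs and 1.752 and 1.707 in the KD inputs, with a mean of 1.730 ± 0.020 (SD, n = 4), above 1.5 in all 4. The 3 ratios had the same direction in 4 of 4 inputs, for which an exact sign-flip permutation test gives p = 0.125, two-sided, the smallest it allows with 4 libraries (Benjamini-Hochberg adjusted p = 0.30 over the 12 ratio tests made).

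Other chromosomes did not reach the distal level. Chromosome 22, the next highest, had an input level of 1.22 ± 0.04 (SD, n = 4), and chromosome 19, rich in genes, had 1.15 ± 0.02. Chromosome 12 stood at 0.966 ± 0.020, and its highest input library reached 0.991. The lowest autosome was chromosome 18 at 0.821 ± 0.010. Proximal chromosome 10 lay between chromosome 13 at 0.883 ± 0.009 and chromosome 21 at 0.846 ± 0.021, so that its level was not outside the range of whole chromosomes.

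**Figure D1:**
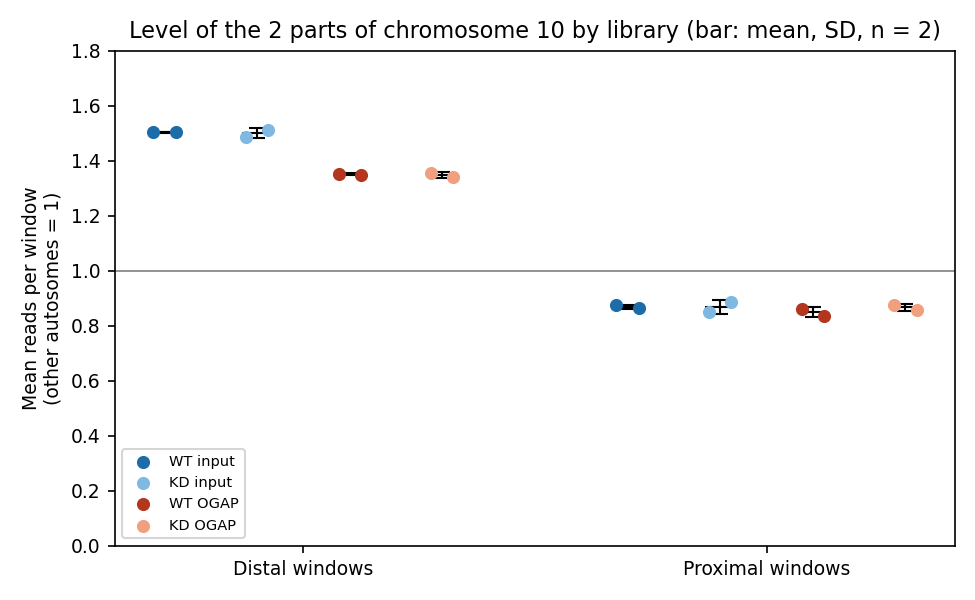
Mean reads per promoter window for distal (418) and proximal (216) windows of chromosome 10, divided by the mean over the other autosomes in the same library. Points are the 8 libraries, and bars give the mean and SD of 2 libraries. The 4 inputs lie at 1.487 to 1.513 in distal windows and the 4 OGAP libraries at 1.340 to 1.356, while proximal windows of all 8 libraries lie at 0.836 to 0.886.

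Along the chromosome the input level was flat, stepped up near the division and stayed up to the end. In 10 Mb bins the mean over the 4 inputs was 0.882, 0.874, 0.903, 0.848, 0.860 and 0.821 in the 6 proximal bins, in order from the start of the short arm. In the distal bins it was 1.33 from 60 Mb, 1.59 from 70 Mb, 1.37 from 80 Mb, 1.44 from 90 Mb and 1.65 from 100 Mb. It was 1.44 from 110 Mb, 1.46 from 120 Mb and 1.71 from 130 Mb to the end. Every distal bin stood above every proximal bin, and the distal bins differed among themselves by more than the spread between libraries, whose SD in a bin was 0.018 to 0.088. Among 257 autosomal bins of 10 Mb with at least 20 windows, the distal bins took ranks 1 to 6, 9 and 14 by input level. On other autosomes 6 bins reached the lowest distal bin, and none reached the median of the distal bins.

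**Figure D2:**
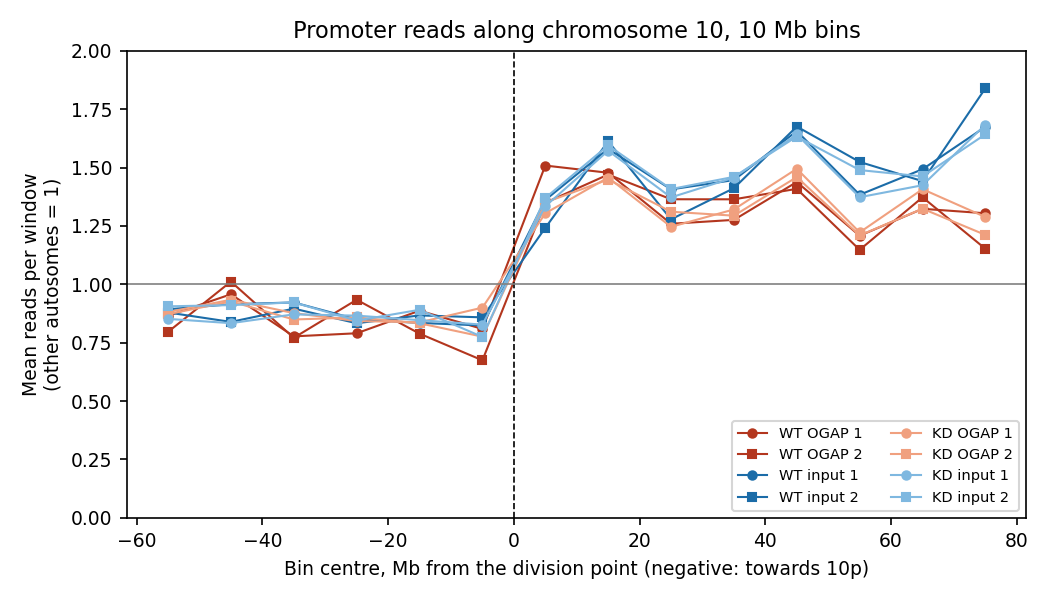
Mean reads per promoter window in 10 Mb bins of chromosome 10 over that of the other autosomes, against the distance of the bin centre from the division at 60 Mb, for each of the 8 libraries. Input levels lie at 0.821 to 0.903 on average in the 6 proximal bins and at 1.33 to 1.71 in the 8 distal bins, and OGAP falls below input in most distal bins.

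The step was not exactly at 60 Mb. In 2 Mb bins the mean input level was 0.893 from 58 Mb (8 windows), 0.982 from 60 Mb (6 windows), 1.35 from 62 Mb (5 windows), 1.01 from 66 Mb (4 windows), 1.47 from 68 Mb (22 windows) and 1.70 from 70 Mb (22 windows). Few windows fill the interval from 60 to 68 Mb. The single division that best separated 2 levels in the 4 inputs pooled fell between ARID5B, which encodes a DNA-binding transcriptional regulator and starts at 61.9 Mb, and RTKN2, which starts at 62.3 Mb. The OGAP libraries pooled gave the same pair of windows. For single libraries the division lay between 60.8 and 68.2 Mb. With square roots of counts the pooled inputs gave 67.8 to 67.9 Mb. This division was chosen from the counts and is a description, with no test.

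The named windows nearest the division spanned both levels. UBE2D1, which encodes a ubiquitin-conjugating enzyme, held 54 and 46 reads in the WT inputs and 55 and 40 in the KD inputs, a level of 1.20 ± 0.17 (SD over 4 inputs). TFAM, the packaging and transcription factor of mitochondrial DNA, stood at 0.92 ± 0.32, FAM13C at 0.80 ± 0.14 and CCDC6, a frequent fusion partner of RET, at 1.03 ± 0.24. Beyond the division, ANK3, the gene of a membrane-skeleton adaptor, stood at 0.91 ± 0.23 and CDK1, the mitotic kinase, at 0.71 ± 0.22. TMEM26 stood at 1.35 ± 0.20 and CABCOCO1 at 0.90 ± 0.26. The levels of single windows on the 2 sides therefore overlapped within about 2 Mb of the division, and 3 of the 4 nearest named distal windows lay under the level of the other autosomes.

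Single windows spread widely, and the distal ones were shifted as a group. The mean input level of a window had a median of 1.54 over distal windows, with quartiles of 1.26 and 1.76, against 0.873 (0.738 and 1.05) over proximal windows and 0.999 (0.794 and 1.21) over those of other autosomes. Of the 418 distal windows, 306 (73.2%) lay above the autosomal mean in all 4 inputs, against 11 of 216 proximal windows (5.09%) and 22.3% of other windows. In single inputs, 81.3% to 89.5% of distal windows held more reads than the median window of the other autosomes, against 28.2% to 39.4% of proximal windows. At least double the autosomal level was found in 46 distal windows (11.0%), in no proximal window and in 0.530% of other windows. Windows of 1 chromosome part share their copies, so these counts describe the libraries and are not independent replicates.

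**Figure D3:**
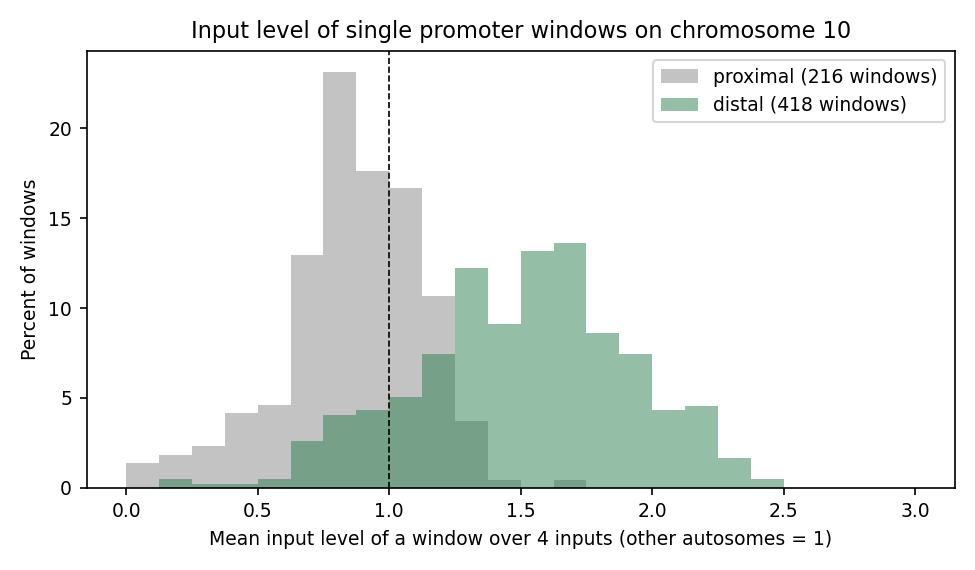
Percent of promoter windows by mean input level over 4 inputs (mean of other autosomes = 1), for 418 distal and 216 proximal windows of chromosome 10. The distal windows centre on a median of 1.54 and the proximal windows on 0.873, and the 2 distributions overlap.

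The highest distal input levels of named windows were those of FUOM, which encodes a fucose mutarotase, at 2.42 ± 0.44 (SD over 4 inputs), DDIT4, the stress-induced inhibitor of mTORC1, at 2.41 ± 0.39, and LBX1, a homeobox gene of muscle and spinal cord development, at 2.37 ± 0.41. GRID1, a gene of the glutamate receptor family, stood at 2.34 ± 0.27 and ADAM8, a metalloprotease gene, at 2.33 ± 0.32. Among named windows the highest proximal levels were lower, with the receptor tyrosine kinase gene RET at 1.47 ± 0.36, the calmodulin-like gene CALML5 at 1.36 ± 0.30 and ARHGAP22, which encodes a GTPase-activating protein, at 1.28 ± 0.31. BAMBI, which encodes a decoy receptor of the TGF-beta family, was at 1.28 ± 0.10 and GDF10, a growth factor gene of that family, at 1.27 ± 0.40.

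Under the autosomal mean in all 4 inputs were 20 distal windows (4.78%), against 33.8% of proximal windows. They were chosen after their values were seen, and the named ones include CDK1, DNAJC12, MSS51, NUTM2A, LIPF, LIPM, CYP2C8, PNLIPRP3, NPS and FRG2B. LIPF and LIPM are lipase genes, and CYP2C8 encodes a drug-metabolising cytochrome. NUTM2A and FRG2B belong to families of near-identical copies, and their counts are uncertain for that reason. Among windows that overlap no other, those with a mean of under 10 input reads numbered 7 proximal and 2 distal. The proximal ones all started between 46.34 and 48.0 Mb, and the named ones among them were PTPN20, FAM25G, AGAP9 and FAM25C, which also have near-identical copies.

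Median input levels of gene groups inside the distal part lay between 0.824 and 1.76 and were not tested against each other. These medians include windows that overlap another, which hold few reads. Such windows were 6 of 17 mitochondrial and metabolic, 3 of 9 DNA repair and genome maintenance and 2 of 17 cytoskeleton, adhesion and matrix windows. The growth control and the immune groups held 1 each. The 17 named distal developmental transcription factor genes had a median of 1.76, from 0.810 to 2.37, and the 16 distal genes of retinal pigment epithelium and photoreceptor function had 1.59, from 0.903 to 2.07. The 24 distal genes of growth control, signalling and apoptosis had a median of 1.51, and the 17 of cytoskeleton, adhesion and matrix had 1.47. The 12 distal cytochrome P450 and lipase genes had a median of 0.824, and 1 of the 12 windows overlaps another. This lay below the 1.54 of the distal windows that overlap no other. The 4 proximal developmental transcription factor genes had 1.06, from 0.952 to 1.13, which lay above the proximal median and below the lower quartile of the distal windows.

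Among named genes followed whatever their values, the distal ones mostly stood higher in input than the proximal ones. MGMT, the gene of the enzyme that removes alkyl groups from guanine, held 72 and 67 reads in the WT inputs and 64 and 51 in the KD inputs, a level of 1.56 ± 0.15 (SD over 4 inputs). The receptor gene FGFR2 stood at 1.49 ± 0.30 and PRDX3, the mitochondrial peroxiredoxin gene, at 1.39 ± 0.07. Of the proximal genes, VIM, which encodes vimentin, stood at 1.13 ± 0.40, ZEB1, a repressor of epithelial genes, at 0.95 ± 0.25 and ERCC6, the gene of a transcription-coupled repair factor, at 1.27 ± 0.09. RET, also proximal and followed whatever its value, stood at 1.47. The proximal and distal levels of these single genes therefore overlapped, with RET above PRDX3 and ERCC6 close to it.

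In OGAP the distal windows were also higher than the other autosomes, by a smaller factor. The distal level was 1.353 and 1.348 in WT OGAP and 1.356 and 1.340 in KD OGAP, a mean of 1.349 ± 0.007 (SD, n = 4), and the 4 OGAP libraries lay below the 4 inputs without overlap. The proximal level was 0.861 and 0.836 in WT OGAP and 0.876 and 0.858 in KD OGAP, a mean of 0.858 ± 0.016 (SD, n = 4), which overlapped that of the inputs. Distal over proximal was 1.571 and 1.612 in WT OGAP and 1.549 and 1.563 in KD OGAP, against at least 1.707 in every input. The distal level in OGAP was 0.898 of that in input (exact permutation p = 0.0286, two-sided, the smallest with 4 against 4), and distal over proximal in OGAP was 0.910 of that in input (exact permutation p = 0.0286). Both adjusted p-values were 0.171 over the 12 ratio tests. The sign-flip tests over 4 inputs could go no lower than p = 0.125, and the permutation tests of 2 against 2 libraries no lower than 0.333. No ratio could therefore pass after correction over all 12, and the adjusted values do not decide the question. For the proximal level the ratio was 0.988 (exact permutation p = 0.371).

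The lower OGAP level was uneven along the distal part. OGAP over input, taken between the bin means, was 1.04 from 60 Mb, 0.920 from 70 Mb, 0.948 from 80 Mb, 0.910 from 90 Mb and 0.878 from 100 Mb, and then 0.830, 0.932 and 0.724 in the last 3 bins. The median of the 249 other autosomal bins was 0.985, and 7 of the 8 distal bins lay below it. The bin from 130 Mb to the end had the lowest value of all 257 bins. The next lowest were the last 10 Mb bins of chromosomes 20, 22 and 14, at 0.752, 0.762 and 0.775, which also had input levels of 1.38, 1.33 and 1.36. Low OGAP over input beside high input was thus not particular to chromosome 10. Without the windows from 130 Mb on, an alternative added after seeing the data, the distal level in OGAP was 0.913 of that in input.

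Between the states the 2 parts of the chromosome differed by little. In input the KD over WT ratio of the distal level was 0.998, with WT libraries at 1.503 and 1.504 inside the range of the KD libraries at 1.487 and 1.513 (exact permutation p = 1). In OGAP it was 0.999, again with overlapping libraries (exact permutation p = 1). Distal over proximal in OGAP was lower in KD by a factor of 0.978, with both KD libraries under both WT libraries, and the exact permutation p of 0.333 is the smallest that 2 against 2 libraries allow. The same ratio in input was 0.999 (exact permutation p = 1). These permutation tests of 2 against 2 libraries could not pass the threshold.

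Single windows were then compared between OGAP and input in WT, the cells without doxycycline, to find promoters more or less frequent in the pull-down than in total DNA. Of 444 tested distal windows, 39 were higher and 49 were lower past an adjusted p of 0.05 in edgeR's quasi-likelihood test over all 17130 tested windows, which is 8.78% and 11.0%, against a background of 9.25% of all tested windows higher and 4.45% lower. Of 220 tested proximal windows, 14 were higher (6.36%) and 8 lower (3.64%). The share of distal windows higher was near the background, and the share lower was above it. Distal windows also held more input reads than other windows, which makes a call easier, and shares at equal read number were not computed. The median log2 change was -0.19 over distal windows, -0.03 over proximal windows and -0.02 over all tested windows. The 47 distal and 22 proximal windows that were not tested had too few reads, and 5 of the 88 distal calls and 1 of the 22 proximal calls were in overlapping windows.

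These counts rested on single libraries. The 88 distal calls became 56 without WT OGAP replicate 1, 38 without WT OGAP replicate 2 and 30 without WT input replicate 2, and the 49 lower calls among them became 27, 18 and 11. The 22 proximal calls became 13 without WT OGAP replicate 2, 13 without WT input replicate 1 and 8 without WT input replicate 2. DESeq2 called 36 distal windows, 21 higher and 15 lower, and 6 proximal ones. Background shares were not computed for these alternatives. The distal median log2 change was between -0.21 and -0.17 under every alternative run. Of 48 named windows called in WT, 9 passed under every alternative run, OLAH, TMEM236, HKDC1, CYP2C8, HK1, CCAR1, ATRNL1, GRID1 and DDIT4.

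Among distal windows the lowest p belonged to ENSG00000119969 (chr10:94500433-94502433, plus strand), which has no gene name under the naming rule and was chosen after its values were seen. Without a name this window was counted in none of the gene groups below. It held 83 and 102 reads in WT OGAP and 35 and 26 in the inputs, a log2 change of 2.64 ± 0.30 (SE; adjusted p = 1.65e-10, edgeR), and it passed in 15 of 15 fits, with 2.40 to 2.89. Of the named distal windows that were higher, those of 2 neighbouring hexokinase genes had low p-values. HKDC1 (chr10:69219302-69221302, plus strand), which encodes a hexokinase-like protein, held 73 and 69 reads in the WT OGAP libraries and 47 and 53 in the inputs, although the OGAP libraries were the shallower ones. Its log2 change was 1.55 ± 0.28 (SE; adjusted p = 4.83e-05, edgeR). HK1 (chr10:69268983-69270983, plus strand), whose product phosphorylates glucose at the mitochondrial surface, starts 49.7 kb away and held 50 and 60 reads against 43 and 36. Its log2 change was 1.52 ± 0.31 (adjusted p = 0.000247, edgeR). CYP2C8, a drug- and fatty acid-metabolising cytochrome gene, held 38 and 46 reads against 23 and 24, a log2 change of 1.87 ± 0.35 (adjusted p = 6.83e-05, edgeR). In all 4 windows both OGAP libraries were above both inputs in reads as counted.

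A further 5 distal windows higher in WT OGAP, next by p among named windows with a mean count at or above the median of tested windows, had log2 changes of 1.19 to 1.49. ATAD1, the gene of an ATPase that extracts misplaced proteins from the mitochondrial outer membrane, was higher by 1.49 ± 0.33, and NPS, the gene of neuropeptide S, by 1.48 ± 0.36. LHPP, a phosphatase gene, was higher by 1.26 ± 0.29 and NODAL, a TGF-beta family morphogen gene, by 1.23 ± 0.28. CCAR1, which encodes a coactivator with roles in cell cycle and apoptosis, was higher by 1.19 ± 0.29. Adjusted p-values of the 5 windows were 0.000914 to 0.00262 (edgeR). Of these, ATAD1, NODAL, LHPP and NPS each lost the call when 1 library was left out, WT input replicate 2 for the first pair, WT OGAP replicate 2 for LHPP and WT input replicate 1 for NPS.

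Among distal windows lower in WT OGAP, ATRNL1 (chr10:115092364-115094364, plus strand), which encodes an attractin-like membrane protein, had the lowest p of the named ones. The window held 5 and 12 reads in the WT OGAP libraries and 84 and 92 in the inputs, a log2 change of -2.32 ± 0.39 (SE; adjusted p = 1.17e-05, edgeR). Its GC-rich promoter is the second of those printed above. GRID1 held 19 and 17 reads against 94 and 116, a log2 change of -1.49 ± 0.33 (adjusted p = 0.000666, edgeR). DDIT4 held 24 and 23 against 111 and 125, a log2 change of -1.28 ± 0.30 (adjusted p = 0.00165, edgeR). Each of these windows was at or above 1.78 times the autosomal level in input.

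ZFYVE27, the gene of the endoplasmic reticulum protein protrudin, was lower by -1.59 ± 0.36 on the log2 scale, and HHEX, a homeobox gene of liver and blood development, by -1.39 ± 0.35. WAPL, the gene of the cohesin release factor, was lower by -1.38 ± 0.36, KAZALD1, whose product resembles insulin-like growth factor binding proteins, by -1.34 ± 0.34, and ZCCHC24, a zinc finger gene, by -1.34 ± 0.33. Their adjusted p-values were 0.0011 to 0.00476 (edgeR). Each lost the call in 1 or 2 of the fits that left out a library. WT OGAP replicate 1 decided the calls of ZCCHC24 and KAZALD1 and WT input replicate 2 that of ZFYVE27, and for HHEX and WAPL there were 2 such libraries, WT input replicate 2 and 1 of the WT OGAP libraries.

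**Figure D4:**
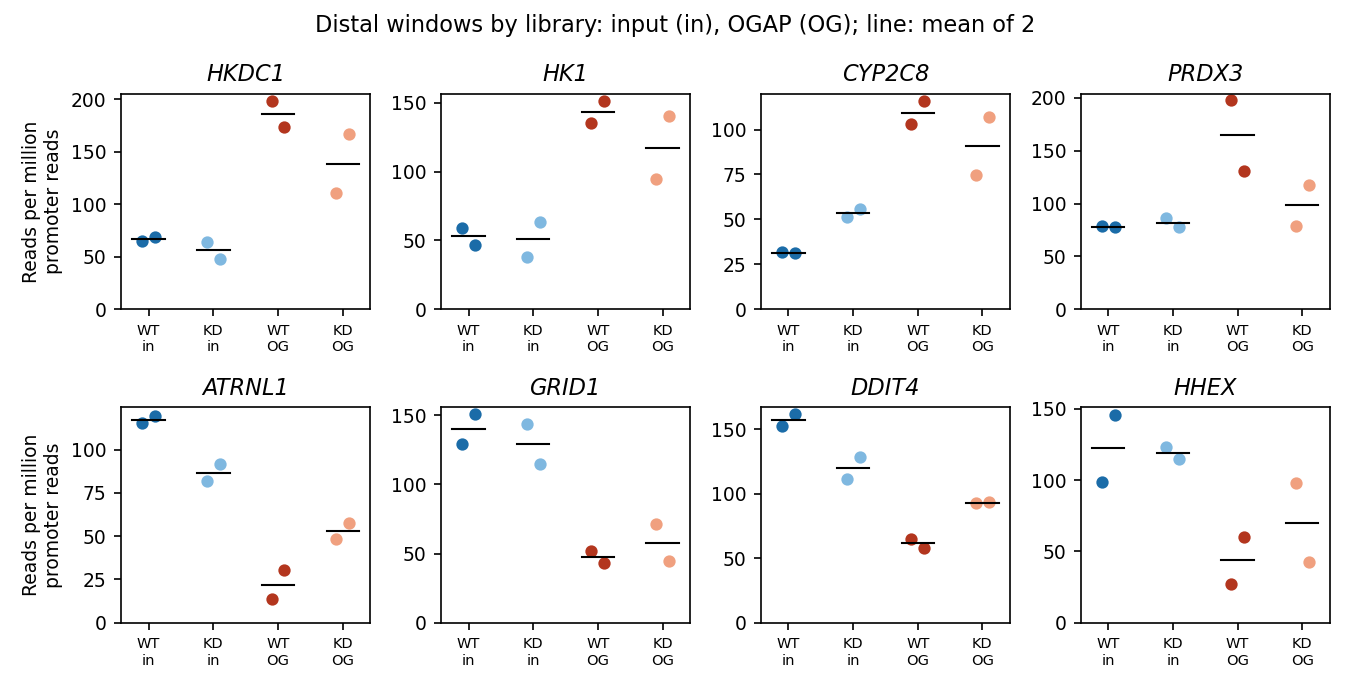
CPM, reads scaled to the library's promoter total, in 8 distal windows, with input (in) and OGAP (OG) libraries of WT and KD, points for the 2 libraries of a group and a line at their mean; each panel has its own axis from 0. HKDC1, HK1, CYP2C8 and PRDX3 are higher in WT OGAP than in WT input, with log2 changes of 1.15 to 1.87, and ATRNL1, GRID1, DDIT4 and HHEX are lower, with -2.32 to -1.28.

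Proximal windows moved in both directions as well. OLAH, which encodes a thioesterase that ends fatty acid synthesis, held 49 and 50 reads in the WT OGAP libraries and 21 and 22 in the inputs, a log2 change of 2.24 ± 0.35 (SE; adjusted p = 2.19e-06, edgeR). TMEM236, a membrane protein gene, held 51 and 33 against 25 and 29, a log2 change of 1.68 ± 0.35 (adjusted p = 0.000304, edgeR). IDI2, an isoprenoid pathway isomerase gene, was higher by 1.55 ± 0.36, ENKUR, a gene of cilia and sperm, by 1.42 ± 0.38, FXYD4, a regulator of the sodium pump, by 1.28 ± 0.32, and GJD4, a connexin gene, by 1.20 ± 0.37. PITRM1, the gene of a mitochondrial peptidase, was lower by -1.26 ± 0.39 (adjusted p = 0.0196, edgeR) and ARHGAP22 by -1.10 ± 0.39 (adjusted p = 0.0449, edgeR). The last 2 calls were lost when either WT input library was left out, PITRM1 also without either WT OGAP library and ARHGAP22 also without WT OGAP replicate 2. Those of IDI2 and GJD4 were lost without WT OGAP replicate 2, GJD4 also without WT input replicate 2, and those of FXYD4 and ENKUR without WT OGAP replicate 1, FXYD4 also without WT input replicate 2 and ENKUR without WT input replicate 1.

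Input enters OGAP over input as its denominator, so the input level of the windows called in WT was read in the KD inputs, which have no part in that fold change. Distal windows lower in WT OGAP had a median KD input level of 1.78 (49 windows, quartiles 1.67 and 1.91), against 1.51 (1.23 and 1.75) in the 333 distal windows that did not pass and 1.20 (1.06 and 1.44) in the 34 that were higher and overlap no other window. In the WT inputs the same medians were 1.98, 1.49 and 1.16, farther apart than in the KD inputs. Proximal windows had the same order in the KD inputs, with 1.01 in 8 lower windows, 0.881 in 190 that did not pass and 0.728 in 13 higher ones. The KD and WT inputs both follow the copies and the recovery of a window, and its number of reads affects whether it is called. The order may thus be set in part by the choice of windows. These are descriptions over windows and were not tested.

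Calls were spread over the distal part, with most lower windows for their number near the end. From 130 Mb on, 9 windows were lower and 2 higher of 30 tested in WT, with a median log2 change of -0.61 in WT and -0.34 in KD. They include GLRX3, a glutaredoxin gene, lower by -1.10 ± 0.34 (adjusted p = 0.0193, edgeR), and NKX6-2, a homeobox gene of oligodendrocytes, lower by -1.15 ± 0.34 (adjusted p = 0.0132, edgeR). In the bin from 60 Mb, 6 windows were higher and 2 lower of 41, with a median of 0.03 in WT. The remaining distal bins had medians of -0.25 to -0.09 in WT and -0.17 to -0.05 in KD.

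**Figure D5:**
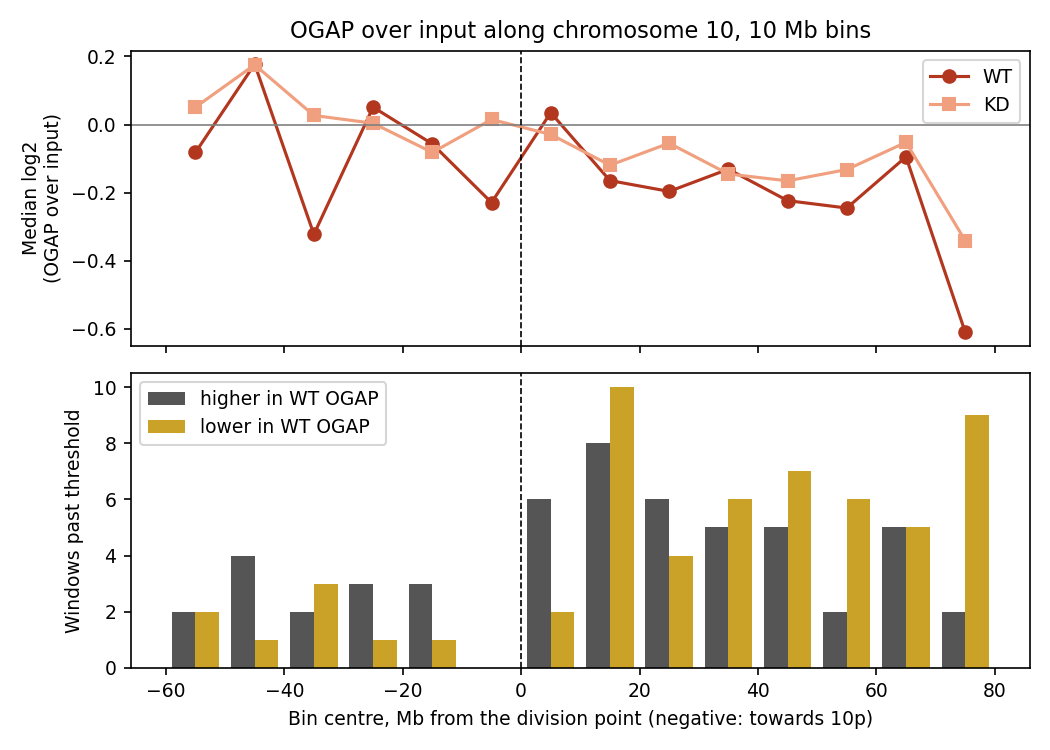
Upper panel, median log2 of OGAP over input of the tested windows in 10 Mb bins of chromosome 10, for WT and KD, against the distance from the division at 60 Mb; lower panel, numbers of windows higher or lower in WT OGAP past an adjusted p of 0.05. The last bin has the lowest medians, -0.61 in WT and -0.34 in KD, and 9 lower windows.

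By function, OGAP over input in WT had calls in both directions in most groups, to be read against 13.7% of all tested windows called, 9.25% higher and 4.45% lower. Of 9 tested redox and antioxidant genes, PRDX3 and PRXL2A, a peroxiredoxin-like gene, were higher and GLRX3 was lower. PRDX3 held 73 and 52 reads in the WT OGAP libraries and 57 and 60 in the inputs, a log2 change of 1.15 ± 0.29 (SE; adjusted p = 0.00312, edgeR). PRXL2A held 55 and 93 against 57 and 91, a log2 change of 1.04 ± 0.29 (adjusted p = 0.00807, edgeR). Of 22 mitochondrial and metabolic genes, 3 were higher, HKDC1, HK1 and ATP5MK, and 3 were lower, GOT1, OAT and PITRM1. GOT1, an aspartate aminotransferase gene, changed by -1.35 ± 0.37 (adjusted p = 0.00758, edgeR). The window of ATP5MK overlaps another and held 2 and 7 reads in the WT inputs, so that its value is uncertain. Calls lost when 1 library was left out were PRDX3 (WT OGAP replicate 1), PRXL2A (WT OGAP replicate 2 or WT input replicate 1), GOT1 (WT OGAP replicate 2), ATP5MK (WT input replicate 1), OAT (WT OGAP replicate 2 or WT input replicate 1) and GLRX3 (either WT OGAP library or WT input replicate 2). Without WT OGAP replicate 1 the log2 change of PRDX3 was 0.81.

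Developmental transcription factor genes were lower where they passed. Of 21 tested, 4 were lower and none higher, HHEX, HMX3, LBX1 and NKX6-2, all distal homeobox genes. HMX3, a gene of inner ear development, held 18 and 18 reads in the WT OGAP libraries and 74 and 98 in the inputs, a log2 change of -1.20 ± 0.33 (SE; adjusted p = 0.00775, edgeR), and LBX1 changed by -0.87 ± 0.29 (adjusted p = 0.032, edgeR). All tested windows were lower in 4.45% of cases and distal ones in 11.0%. The median over the 21 was -0.54, and over their 17 distal members also -0.54, against -0.02 over all tested windows and -0.19 over distal windows. Of the 4 calls 2 passed in DESeq2. In the genes of retinal pigment epithelium and photoreceptor function, 1 of 18 was higher, HK1, and 4 were lower, with a median of -0.28. The lower ones were OAT, the ornithine aminotransferase gene mutated in gyrate atrophy, at -1.18 ± 0.36, and CDH23, a cadherin gene of hair cells and photoreceptors, at -1.19 ± 0.34. HTRA1, a serine protease gene at a locus of macular degeneration, was at -0.96 ± 0.32 and HPS6, a gene of melanosome formation, at -0.93 ± 0.32. Of the 5 calls 1 passed in DESeq2. Without WT OGAP replicate 2 the calls of HMX3, LBX1, NKX6-2, OAT, CDH23, HTRA1 and HPS6 were lost. Without WT input replicate 2 those of HHEX, HMX3, LBX1, NKX6-2, CDH23, HTRA1 and HPS6 were lost, without WT OGAP replicate 1 those of HHEX, LBX1, NKX6-2 and HPS6, and without WT input replicate 1 those of LBX1, OAT, HTRA1 and HPS6.

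The remaining groups are also set against 13.7% of all tested windows called in WT. Of 33 genes of growth control, signalling and apoptosis, CCAR1 and TACC2, a centrosomal coiled-coil gene, were higher and DUSP5, a nuclear ERK phosphatase gene, was lower, by -1.19 ± 0.33 (SE; adjusted p = 0.00849, edgeR). Of 15 immune and interferon genes, IFIT1 and IFIT3, which encode interferon-induced RNA-binding proteins, were higher, by 1.05 ± 0.31 and 1.37 ± 0.34. Of 11 cytochrome P450 and lipase genes, CYP2C8 and LIPF were higher, LIPF by 1.66 ± 0.40, and CYP26C1, a retinoic acid-degrading enzyme gene, was lower by -0.87 ± 0.31. Of 23 genes of cytoskeleton, adhesion and matrix, 3 were higher, PLAU, CEP55 and COL17A1, and 3 lower, COL13A1, PDLIM1 and KIF5B, none of them past the threshold in DESeq2. Of 18 listed genes of DNA repair and genome maintenance, 14 had a named window and 10 of these were tested. None of the 10 passed in edgeR or in DESeq2, and 1 had an unadjusted p under 0.05. In every group, listed genes without a named window were not counted. Windows without a gene name, such as ENSG00000119969, were not assigned to groups, so this does not cover every listed gene. ERCC6 had a log2 value of 0.30 ± 0.32, which turned to -0.10 without WT OGAP replicate 2, and MGMT had -0.45 ± 0.33. Calls were lost without WT OGAP replicate 2 for DUSP5, IFIT1, IFIT3, CYP26C1 and the 6 cytoskeleton, adhesion and matrix genes, and without WT input replicate 2 for DUSP5, TACC2, IFIT1, LIPF and CYP26C1. CYP26C1 and TACC2 also lost theirs without WT OGAP replicate 1, and CYP26C1 without WT input replicate 1. Of the 6, CEP55, COL17A1 and COL13A1 lost their call without any 1 of the 4 WT libraries, PLAU without WT input replicate 1, KIF5B without either WT input and PDLIM1 without WT OGAP replicate 1 or WT input replicate 2. Leaving out KD input replicate 1 ended the WT calls of CEP55, COL17A1, KIF5B and PDLIM1, and leaving out KD input replicate 2 those of the first 3.

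In KD, OGAP over input had few calls. Of 444 tested distal windows 4 were higher and 1 was lower, against a background of 0.63% of all tested windows higher and 0.105% lower (0.736% in either direction), and of 220 proximal windows none passed, with 33 (15.0%) at an unadjusted p under 0.05, against 12.6% of all tested windows, and none in DESeq2. The median log2 change was -0.13 over distal windows, 0.02 over proximal windows and 0.03 over all tested windows. HKDC1 held 62 and 75 reads in KD OGAP against 44 and 31 in KD input, a log2 change of 1.33 ± 0.30 (SE; adjusted p = 0.011, edgeR), and HK1 held 53 and 63 against 26 and 41, a log2 change of 1.24 ± 0.31 (adjusted p = 0.0312, edgeR). PDLIM1, the gene of a PDZ and LIM domain protein of the cytoskeleton, held 32 and 19 against 92 and 67, a log2 change of -1.21 ± 0.32 (adjusted p = 0.0394, edgeR). The 3 windows had passed in the same direction in WT. The other 2 calls were in windows without a gene name, 1 of them overlapping another. The other was ENSG00000119969, with 57 and 75 reads in the KD OGAP libraries and 53 and 28 in their inputs. Its log2 change was 1.17 ± 0.30 (adjusted p = 0.035, edgeR). This call passed in 10 of 15 fits and was lost without KD OGAP replicate 2, either KD input or WT input replicate 2. It was also lost with scaling on autosomes without chromosomes 10 and 12 (adjusted p = 0.0511, edgeR). All 3 named calls were lost without KD OGAP replicate 2, without KD input replicate 1 or without KD input replicate 2, and the 5 distal calls became 0, 0 and 1. They became 9 without WT OGAP replicate 1, without WT OGAP replicate 2 or without KD OGAP replicate 1, and the proximal count became 1 without KD OGAP replicate 1.

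Windows called in WT mostly kept their sign in KD with smaller changes. Of 39 distal windows higher in WT, 38 were above 0 in KD, with a median log2 change of 1.19 in WT and 0.61 in KD, and of 49 lower in WT, 44 were below 0, with medians of -1.16 and -0.44. Of the proximal windows 13 of 14 and 6 of 8 kept their sign. For comparison, 39.4% of all tested distal windows, 51.4% of proximal ones and 52.5% of all tested windows were above 0 in KD. Windows selected for large values in WT have medians drawn away from 0 in WT by that selection, so the smaller KD medians are no test of a difference. For ATRNL1 the KD OGAP libraries held 27 and 26 reads against 56 and 59 in KD input, a log2 change of -0.67 ± 0.33 (adjusted p = 0.382, edgeR).

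The difference between the states itself did not pass in any chromosome 10 window. For KD against WT in OGAP, none of 444 distal and 220 proximal windows passed in edgeR or DESeq2, against a background of 0.035%, and 54 and 19 had an unadjusted p under 0.05 (12.2% and 8.64%, against 10.6% of all tested windows). KAZALD1 held 61 and 40 reads in KD OGAP against 12 and 20 in WT OGAP, a log2 difference of 1.20 ± 0.35 (SE; adjusted p = 0.211, edgeR). ZFYVE27 had 1.16 ± 0.39, DNTT, the gene of a template-independent DNA polymerase of lymphocytes, 1.18 ± 0.40, PRLHR, a neuropeptide receptor gene, 0.96 ± 0.34 and VAX1, a homeobox gene of the eye and forebrain, 0.93 ± 0.35. On the other side PRDX3 held 44 and 53 reads in KD OGAP against 73 and 52 in WT OGAP, a log2 difference of -0.80 ± 0.29 (adjusted p = 0.306, edgeR), and ATAD1 had -0.86 ± 0.33. Proximal RASGEF1A, a Ras exchange factor gene, had -1.03 ± 0.38 (adjusted p = 0.311, edgeR), and MAPK8, the gene of the stress kinase JNK, had 0.77 ± 0.40.

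For KD against WT in input none passed on chromosome 10 in edgeR or DESeq2, against a background of 0.0%, and the smallest adjusted p was 0.999. At an unadjusted p under 0.05 were 20 distal and 6 proximal windows, and 4.41% of all tested windows. The median log2 difference was -0.02 over distal windows and -0.0035 over proximal windows. For the KD effect on OGAP over input none passed on chromosome 10 either, in edgeR or DESeq2, against a background of 0.00584%, with 29 distal and 18 proximal windows at an unadjusted p under 0.05, as had 8.14% of all tested windows. For ATRNL1 the KD effect was 1.64 (adjusted p = 0.392, edgeR), for KAZALD1 1.26 (adjusted p = 0.454), for HKDC1 -0.23 (adjusted p = 0.921) and for HK1 -0.28 (adjusted p = 0.905), values that did not pass. The last 2 turned positive when 1 library was left out, HKDC1 at 0.06 without KD OGAP replicate 1 and 0.0026 without KD input replicate 1, and HK1 at 0.13 without KD input replicate 2. A window that missed the threshold is not shown to be equal in the 2 states.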

How the data were processed

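Reads were counted in promoter windows of 8 genomic DNA libraries of RPE1 cells. The authors deposited counts, whole numbers of reads per window that were not normalized, in 1 table of the series. The build was hg38, and BWA 0.7.17-r1188, featureCounts, bedtools and MACS2 are listed without roles, per the submitters' processing notes. How strand and overlapping windows were handled in counting is not stated there. Each column of reads belonged to a labelled library, and 0 had no sample. Deposited coverage profiles summed over genes do not resolve chromosomes and were not used.

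The members, the gene lists and the tests were chosen with earlier results of these data known. A window took the name of a protein-coding RefSeq gene (GRCh38.p14) when just 1 of them started, on its strand, at most 500 bp from its middle, which named 15370 of 19957 windows and 578 of 733 on chromosome 10. Promoter sequences were matched for 296 distal and 136 proximal windows that overlap no other.

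Levels are mean reads per window over that of the other autosomes within a library, compared over libraries with exact two-sided permutation or sign-flip tests. Window counts went into edgeR's quasi-likelihood test (version 4.0.16, R 4.3.3; TMM scaling, filterByExpr, 4 group means over 8 libraries), with Benjamini-Hochberg adjustment over 17130 tested windows and a threshold of 0.05. Each SE was derived from the log2 change and its F statistic. DESeq2 1.42.0 was an alternative, beside other scalings, filters, division points and left-out libraries. The scripts were tested on simulated data. Named are up to 8 windows per direction and side with the lowest p past the threshold (5 for comparisons between states), among named windows that overlap no other and hold at least 32.5 reads on average, the median of tested windows, those nearest 60 Mb, those with the highest input, list members past the threshold and a few fixed genes. Replicate numbers are shared between groups, but deviations of same-numbered libraries correlated at -0.040 to 0.024, so the numbers were not taken as pairs.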

Additional observations from a re-analysis of the deposited data

Results flagged for a closer look

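The distal level of chromosome 10 over the other autosomes differed between kinds of library, with OGAP at 0.898 of input (1.349 ± 0.007 against 1.502 ± 0.011, SD, n = 4 each). It was lower in all 4 OGAP libraries than in all 4 inputs (exact permutation p = 0.0286, two-sided, adjusted 0.171 over 12 tests). Distal over proximal differed in the same way, with OGAP at 0.910 of input (exact permutation p = 0.0286, adjusted 0.171). Within WT the distal OGAP over input ratio was 0.898, and within KD it was 0.899. The ratio of the 2 kinds of library was 1.04 in the bin from 60 Mb and 0.724 in the bin from 130 Mb.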

How the results depend on the processing

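No ratio passed after adjustment, and with these numbers of libraries none could. The unadjusted p of the ratios stayed on its side of 0.05 under the alternatives run, except with the replicate block. Input distal over other autosomes ranged from 1.47 to 1.55 and distal over proximal from 1.63 to 1.75. Leaving out single libraries gave 1.498 to 1.507 and 1.723 to 1.738. With the replicate block, OGAP against input was 0.910 for distal over proximal and 0.898 for distal over other autosomes, both at an exact sign-flip permutation p of 0.125, the smallest that 4 pairs allow. With DESeq2 the distal calls in WT went from 88 to 36 and the proximal ones from 22 to 6. Leaving out single libraries gave 30 to 91 and 8 to 25. In KD the 5 distal calls became 8 without a count filter and 0 to 9 with libraries left out, and the proximal count was 0 to 1. Of 48 named calls in WT, DESeq2 kept 26, and 3 were lost with the replicate block, which moved no count of calls by over 1.5 times. In KD PDLIM1 lost its call with the replicate block (adjusted p = 0.0511, edgeR). Signs that reversed belonged to values that had not passed: NMT2 for KD against WT in OGAP (-1.50 to 0.14 over fits without 1 library, positive without WT OGAP replicate 1), ERCC6 for OGAP over input in WT (-0.10 to 0.60, negative without WT OGAP replicate 2), and the KD effect on OGAP over input of HKDC1 (-0.54 to 0.0598, the latter without KD OGAP replicate 1, and 0.0026 without KD input replicate 1) and HK1 (-0.61 to 0.13, positive without KD input replicate 2). The cause of these changes was not tested. A comparison within strata of promoter GC was void and was not run, because a promoter sequence was matched to 70.8% of distal, 63.0% of proximal and 57.7% of other windows, under the 80% needed. With 17 to 38 reads in the median window of a library, depth limits calls for single windows.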
